A study of Mus musculus with 4 samples.

Results

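The 10 genes described here encode transcriptional repressors of the HES, HEY and BHLHE families (Hes1, Hey1, Hes6, Hey2, Heyl, Bhlhe40 and Bhlhe41) and Groucho corepressors (Tle1, Tle3 and Tle4). They were chosen by name, as the 2 deleted genes, their relatives and the partners through which they act, and were 10 of 18193 genes measured. Every probe set whose annotation named one of them alone was taken, which gave 20 probe sets, each a group of short probes read together. The RNA came from bone marrow-derived macrophages of C57BL/6 background, grown for 5 days in medium holding FBS and supernatant of L929 cells, each at 10%, the latter being a common source of M-CSF. The 4 groups were WT cells left untreated, WT cells given 2 ng/ml LPS for 3 h, untreated cells with a Hes1 and Hey1 double knockout (DKO), and DKO cells given the same LPS. LPS is the bacterial ligand of the receptor TLR4. Each group had 1 array, so differences could not be set against the spread between cultures, and they stand here without error or p-value. The labels used here do not state how the DKO alleles were made, the age of the animals or whether animals were pooled. Where 4 intensities are given in a row, they follow the order untreated WT, LPS-treated WT, untreated DKO, LPS-treated DKO.

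HES and HEY proteins are basic helix-loop-helix repressors. They bind short E-box and N-box sites near their target genes, and Notch signalling, through the DNA-binding factor RBPJ, switches on Hes1, Hey1, Hey2 and Heyl. HES proteins end in a short peptide that recruits Groucho (TLE) corepressors, which do not bind DNA themselves and in turn recruit histone deacetylases. BHLHE40 and BHLHE41, also known as DEC1 and DEC2, bind the E-box CACGTG, repress the circadian clock genes, and take part in the control of cytokine genes in macrophages and lymphocytes.

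The sites these repressors bind are short enough to read directly in the members' own promoters. RefSeq (build GRCm38.p6) promoter windows were held for 6 of the 10 genes, namely Bhlhe41, Hes6, Hey2, Tle1, Tle3 and Tle4. The 250 bases before each annotated start were searched on both strands for the class B E-box CACGTG, the class C site CACGCG, the N-box CACNAG and the RBPJ core TGGGAA. Bhlhe41, Tle3 and Tle4 are shown because their windows hold CACGTG. Each stretch runs 5′ to 3′ on the gene's strand and lies before the outermost annotated start of the gene. Capitals mark every match to the 4 motifs. The Bhlhe41 stretch is chr6:145865421-145865670 (minus strand), that of Tle3 is chr9:61372116-61372325 (plus strand), and that of Tle4 is chr19:14598184-14598433 (minus strand).
Bhlhe41: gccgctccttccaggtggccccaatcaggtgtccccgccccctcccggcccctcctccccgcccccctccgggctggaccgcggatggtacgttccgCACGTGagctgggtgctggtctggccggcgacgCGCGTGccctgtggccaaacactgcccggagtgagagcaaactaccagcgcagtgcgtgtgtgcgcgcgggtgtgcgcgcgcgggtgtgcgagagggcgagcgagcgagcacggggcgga
Tle3: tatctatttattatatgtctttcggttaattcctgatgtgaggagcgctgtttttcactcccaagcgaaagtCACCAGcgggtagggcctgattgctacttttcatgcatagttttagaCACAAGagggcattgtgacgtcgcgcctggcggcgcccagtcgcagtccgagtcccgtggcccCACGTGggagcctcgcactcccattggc
Tle4: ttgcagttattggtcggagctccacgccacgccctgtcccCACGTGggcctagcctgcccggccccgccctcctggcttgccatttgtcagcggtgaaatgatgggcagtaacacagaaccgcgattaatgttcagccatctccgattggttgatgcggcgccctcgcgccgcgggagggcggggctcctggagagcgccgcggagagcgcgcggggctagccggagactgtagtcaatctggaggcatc

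In Bhlhe41 the E-box began 153 bases before the annotated start, and a class C site on the other strand began 120 bases before it. In Tle3 the E-box began 68 bases before a start that lies 40 bases inside the gene's outermost bound, and N-boxes began 178 and 131 bases before that start. In Tle4 the E-box began 210 bases before the more upstream of its 2 annotated starts, and the window of the other start held none of the motifs. Tle1 held a class C site beginning 81 bases before its start, and 1 of the 2 Hes6 windows held an N-box 237 bases before its start. The Tle1 and Hes6 matches lie inside the gene's outermost bound, before an inner annotated start. Hey2 held an RBPJ core on the other strand 207 bases before its start. Over all 32851 windows of this length, CACGTG was found in 6.02%, CACGCG in 7.62%, CACNAG in 36.7% and TGGGAA in 21.6%. The members' windows were richer in G and C, with a median of 68% against 52.4% over all windows. A match is a run of letters, and no binding was measured here.

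**Figure D1:**
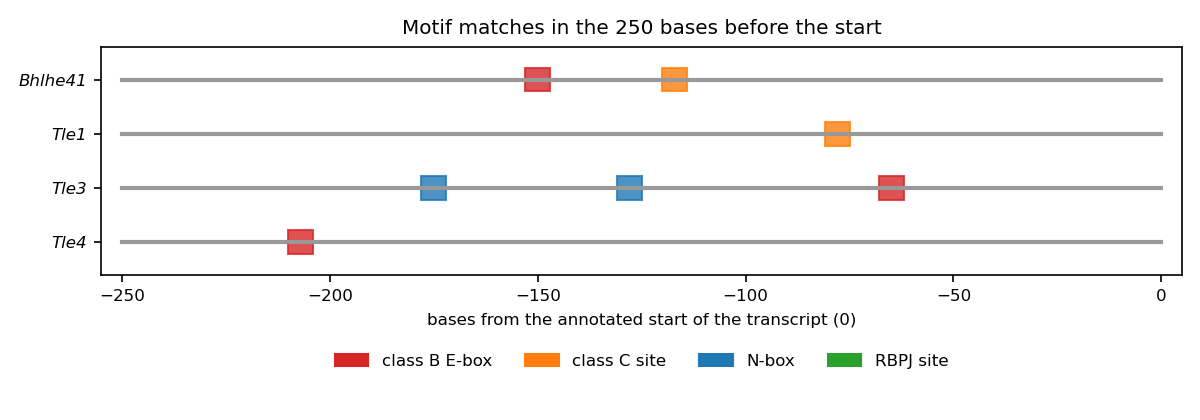
Positions of matches to the class B E-box, class C site, N-box and RBPJ core in the 250 bases before the annotated transcript start of Bhlhe41, Tle1, Tle3 and Tle4 (x axis, bases from the start at 0; boxes are 6 bases wide and coloured by motif). Bhlhe41, Tle3 and Tle4 each hold 1 class B E-box, at 153, 68 and 210 bases before the start, and none of these 4 windows holds an RBPJ core.

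Intensities were compared after values under a floor of 52.9 units, the median of all probe sets, were set to that floor. A gene below the floor on both arrays of a comparison has no difference, and one below it on a single array gives only a bound. Of 27 bacterial control probe sets, which read background if no matching transcript was added, the medians were 4.64 to 6.87 units and the highest value was 46.0. All 8 measured macrophage markers, such as Csf1r and Adgre1, lay above the floor on every array, with summed intensities of 81447, 120106, 101407 and 127804 units. Markers of T cells (3 measured), B cells (3), granulocytes (5), dendritic cells (4), mast cells and basophils (4) and NK cells (1) were below the floor on every array. Of 6 stromal markers only Pdgfrb, of 5 endothelial markers only Kdr and of 2 erythroid markers only Klf1 rose above it on any array. The 3′ to 5′ signal ratio, a sign of RNA integrity, was 0.840 to 0.877 for Gapdh and 1.01 to 1.11 for Actb over the 4 arrays. In RNA from whole cultures, fewer cells that express a gene and less RNA per cell cannot be told apart.

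Both deleted genes read near or below the floor in WT cells and below it in DKO cells. Hes1, whose product is the best known Notch-induced repressor, gave 45.4, 26.7, 2.14 and 5.80 units. Every Hes1 value was below the floor, so no difference is given, while both DKO values were below both WT values. Hey1, a relative that pairs with HES1, read 57.2 and 17.3 units in WT cells without and with LPS, and 9.17 and 10.2 in DKO cells. Only the value in untreated WT cells cleared the floor, so Hey1 was at least 1.08-fold lower in untreated DKO cells and at least 1.08-fold lower in WT cells with LPS. On the untreated WT array the highest bacterial control read 32.7 units, below both genes. On the WT array with LPS it read 46.0 units, and on the DKO arrays 23.5 and 22.8, above both genes. Probe sets below the floor throughout read higher on the untreated WT array, by a median of 0.24 on the log2 scale, and the part of this in the Hes1 and Hey1 values was not tested. Each gene has a single probe set, and the labels do not say if it falls inside the deletion, so these values do not settle the genotype.

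**Figure D2:**
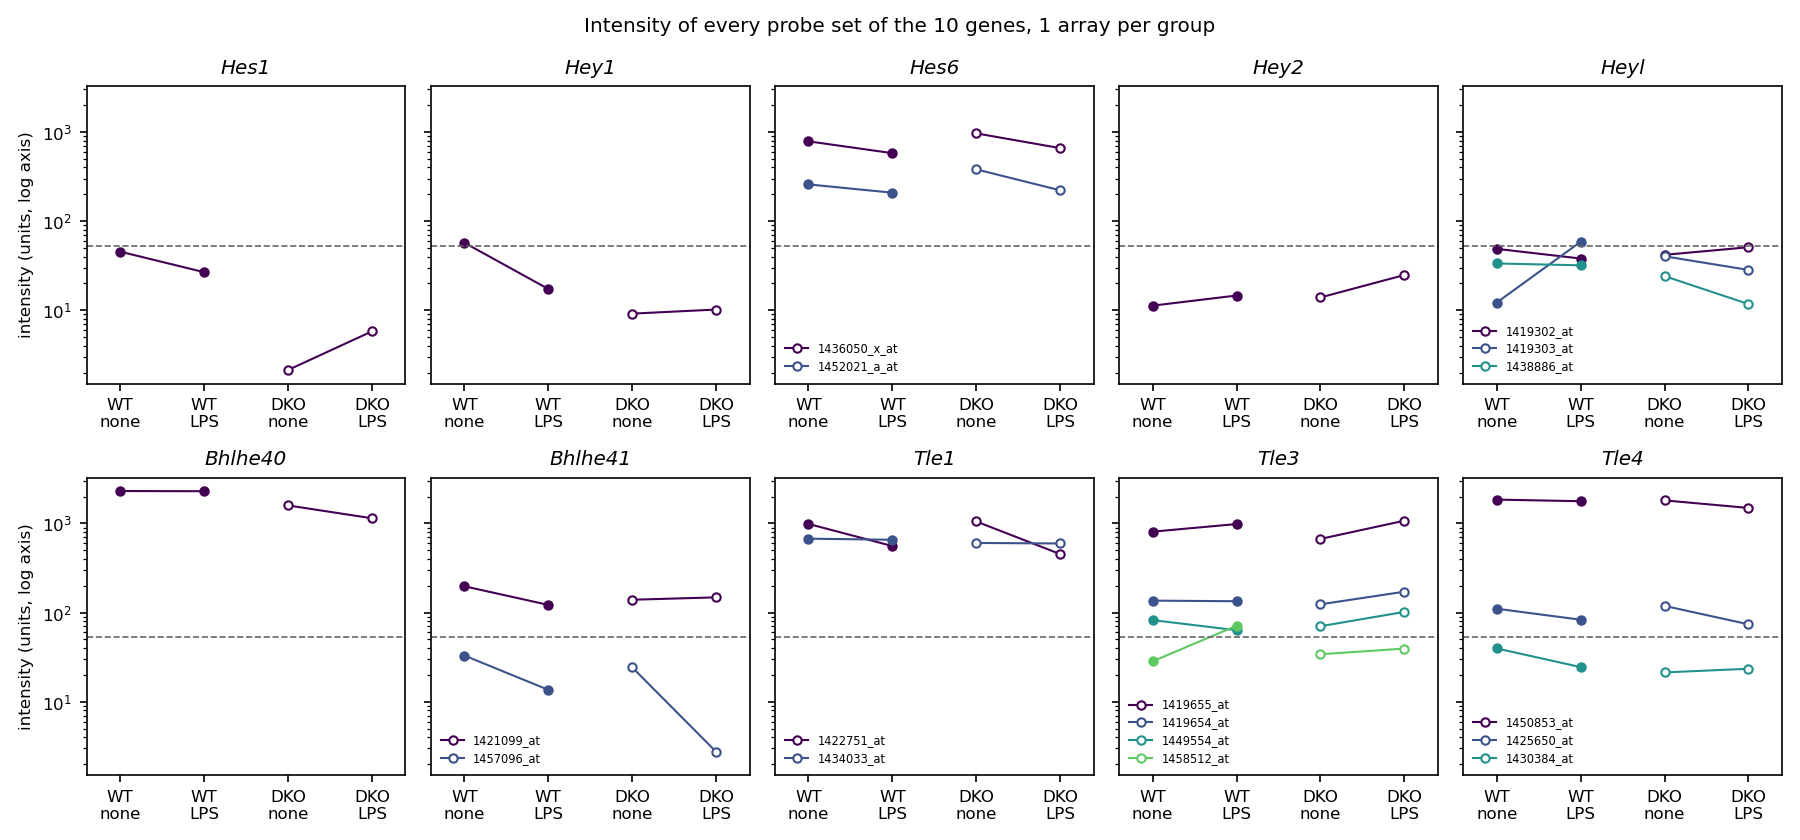
Intensity (y axis, units, log axis) of each of the 20 probe sets of the 10 genes on the 4 arrays (x axis; filled points WT, open points DKO, lines join the untreated and LPS arrays of a genotype, colours are probe sets, the dashed line is the floor of 52.9 units). Hes1 and Hey2 lie below the floor on all arrays, while Bhlhe40 falls from 2309 units in untreated WT cells to 1143 in DKO cells with LPS.

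The other Notch-responsive repressors were near or below the floor in both genotypes. Hey2, known for its role in the heart and vessels, gave 11.3, 14.6, 13.9 and 24.8 units. The brightest of 3 probe sets of Heyl, the remaining HEY gene, gave 48.8, 38.1, 41.9 and 50.9 units. Both genes were thus below the floor on all arrays, apart from 58.6 units of a second Heyl probe set in WT cells with LPS. That probe set gave 12.2, 58.6, 40.3 and 28.3 units, and the remaining one stayed at 33.5 units or less. Of 8 more genes of the family listed for comparison, 6 were measured (Hes2, Hes3, Hes5, Hes7, Bhlhe23 and Bhlha15), and all were below the floor on all arrays, the highest at 37.4 units.

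Hes6 was the only HES gene above the floor. Its product binds HES1 and opposes it, and is known for promoting differentiation. Its brighter probe set, 1436050_x_at, gave 784, 578, 963 and 658 units. The LPS arrays were the lower ones in both genotypes, and each DKO array was above the WT array of the same treatment. The other, 1452021_a_at, gave 258, 208, 380 and 221 units, with the same signs throughout. LPS differences were -0.44 and -0.31 in WT cells and -0.55 and -0.78 in DKO cells by the 2 probe sets, on the log2 scale. DKO minus WT was 0.30 and 0.56 without LPS, and 0.19 and 0.089 with it. None of these reached 2-fold, and the suffixes of both probe sets mark designs that may read more than 1 transcript.

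Bhlhe40 had the largest genotype difference among the 6 members above the floor on all arrays. Its single probe set gave 2309, 2297, 1591 and 1143 units. Both DKO values lay below both WT values. Its LPS difference was -0.0076 in WT cells, or 0.21 with array medians set equal, and -0.48 in DKO cells, on the log2 scale. Against WT it was 1.45-fold lower in DKO cells without LPS and 2.01-fold lower with LPS, the latter the 100th lowest of 11236 genes compared. The value with LPS just passed the threshold and fell short of it after quantile normalization (-0.98), cyclic loess (-0.98) and with the offset of 16 units (-0.997, on the log2 scale). Over all settings with a floor it stayed between -1.01 and -0.98. The difference of the LPS effects, DKO minus WT, was -0.47, short of 2-fold.

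Bhlhe41, the closest relative of Bhlhe40, followed another order. Its brighter probe set gave 197, 122, 139 and 148 units. The untreated WT array was the highest and the WT array with LPS the lowest, with both DKO arrays between them. The LPS difference was -0.69 in WT cells and 0.089 in DKO cells, the second of which became a bound of -0.14 with the median over both probe sets. DKO minus WT was -0.50 without LPS and 0.28 with it. The LPS effects differed by 0.78 on the log2 scale, below 2-fold and the 265th highest of 9982 genes. This was the largest such value among the 6 members above the floor on all arrays, each read by its brightest probe set. With array medians set equal it was 0.57, where that of Bhlhe40 was -0.68. Under that scaling the LPS difference of Bhlhe41 in WT cells was -0.48, and its DKO minus WT difference without LPS was -0.29. Its other probe set was below the floor on all arrays, at 2.75 to 33.0 units.

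Among the Groucho genes Tle1 differed most with LPS, but only by 1 of its 2 probe sets. TLE1 is a corepressor also known to restrain NF-kB target genes. Probe set 1422751_at gave 987, 558, 1052 and 453 units. Both LPS arrays were below both untreated arrays, by 1.77-fold in WT cells and 2.32-fold in DKO cells. Probe set 1434033_at gave 675, 656, 604 and 596 units, with LPS differences of -0.041 and -0.021. Taking the median over both, the DKO value was -0.62 and short of 2-fold. The probe sets were therefore 0.78 and 1.19 apart on the log2 scale in the 2 genotypes, beside a median gap of 0.26 and 0.20 between the 2 brightest probe sets of 4709 genes. The 90th percentile of that gap was 0.72 and 0.62. Genotype differences of Tle1 were 0.091 and -0.16 by the 2 probe sets without LPS, and -0.30 and -0.14 with LPS, so the sign without LPS depends on the probe set.

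Tle3, a corepressor known in fat cells and T cells, was higher with LPS in DKO cells by each of the 3 probe sets that cleared the floor on every array. The brightest, 1419655_at, gave 808, 984, 670 and 1073 units. The DKO arrays were thus the lowest and the highest of the 4. LPS differences in DKO cells were 0.68, 0.47 and 0.53 by the 3 probe sets, while in WT cells they were 0.28, -0.023 and -0.38 and did not share a sign. The difference of LPS effects was 0.39, 0.49 and 0.91, above 0 by each of the 3 and below 2-fold. DKO minus WT was -0.27, -0.14 and -0.23 without LPS and 0.12, 0.36 and 0.68 with it. The remaining probe set cleared the floor only in WT cells with LPS, at 71.2 units.

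Tle4, a corepressor of blood cell development, was nearly level by its brightest probe set, apart from DKO cells with LPS. Its brightest probe set gave 1850, 1775, 1813 and 1492 units. The DKO array with LPS was the lowest and the other 3 lay close together. The LPS difference was -0.060 in WT and -0.28 in DKO cells, and by a dimmer probe set (111, 83.2, 119 and 74.0 units) it was -0.41 and -0.69. The sign of the WT value of the brightest probe set turned to 0.16 with array medians set equal, and its DKO minus WT difference without LPS (-0.029) turned to 0.18. Its remaining probe set was below the floor on every array.

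**Figure D3:**
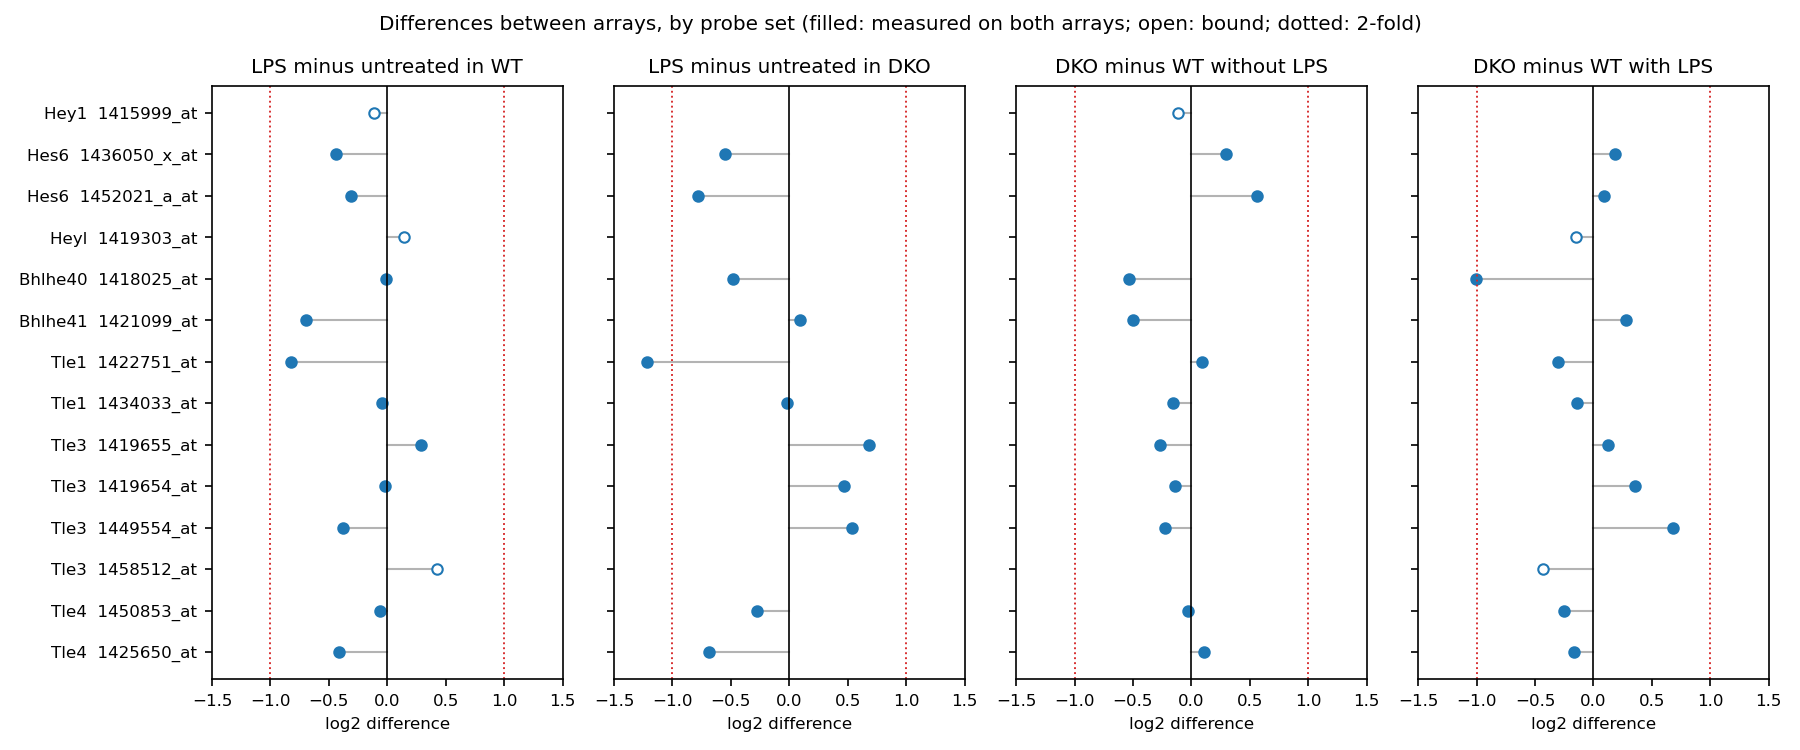
Log2 difference (x axis) of each member probe set with a value, for LPS in WT, LPS in DKO, DKO against WT without LPS and DKO against WT with LPS (panels; filled points are measured on both arrays, open points are bounds, dotted lines mark 2-fold). The 1422751_at probe set of Tle1 passes 2-fold with LPS in DKO cells and Bhlhe40 reaches it for DKO against WT with LPS.

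Few members passed 2-fold, as did few genes in all. With LPS in WT cells 0 of 7 members with a value were higher and 0 lower, where 3.36% of 11491 genes were higher and 3.41% lower. In DKO cells 0 of 6 were higher and 1, Tle1, was lower, against 4.66% and 4.77% of 11241 genes. For DKO against WT without LPS 0 of 7 passed in either direction, beside 0.466% higher and 0.984% lower of 11380 genes. With LPS 0 of 6 were higher and 1, Bhlhe40, was lower, beside 0.845% and 0.934% of 11236 genes. For the difference of LPS effects 0 of 6 passed, beside 1.31% above and 0.721% below among 9982 genes. A single gene among 6 or 7 is too few to set the members apart from these shares.

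The medians of the members lay on the same side of 0 as those of all genes. With LPS in WT cells the members' median was -0.11, with 1 of 7 above 0, against -0.086 for all genes. In DKO cells it was -0.38, with 2 of 6 above 0, against -0.10. For DKO against WT it was -0.11 without LPS and -0.063 with it, against -0.017 and -0.040. Both medians of -0.11 are the floor bound of Hey1, a deleted gene. Hey1 can only lie lower than its bound, so each of these medians is an upper limit. Setting array medians equal moved the median of all genes to 0.12 for LPS in WT cells, to 0.19 for DKO against WT without LPS and to -0.26 for the difference of LPS effects. Under that scaling DKO minus WT without LPS was -0.32 for Bhlhe40 and 0.51 for Hes6, and 4.58% of genes were higher and 1.71% lower with LPS in WT cells, 0.864% higher and 0.383% lower in untreated DKO cells. The 2 LPS comparisons share no array with each other, but each shares arrays with the genotype comparisons.

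**Figure D4:**
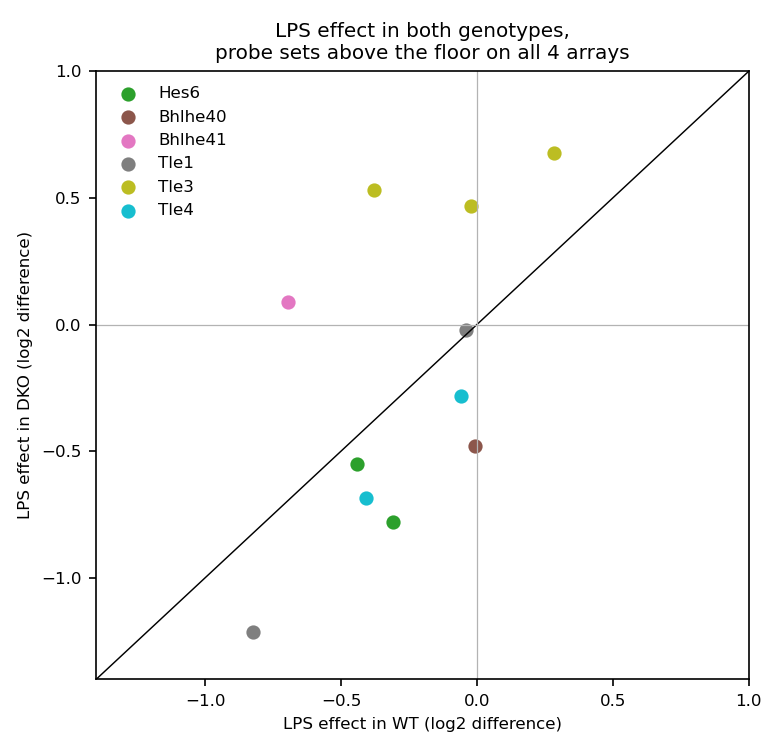
LPS effect in DKO cells (y axis, log2 difference) against LPS effect in WT cells (x axis, log2 difference) for the 11 member probe sets that cleared the floor on each of the 4 arrays, coloured by gene, with the line of equal effects. The 3 Tle3 probe sets and Bhlhe41 lie above the line, at 0.39 to 0.91 over it. Both Hes6 and both Tle4 probe sets and Bhlhe40 lie below it. Tle1 is split, with 1422751_at 0.39 below the line and 1434033_at 0.021 above it.

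Of the remaining Groucho relatives, Tle2 and Tle6 had larger differences between untreated DKO and WT cells than Tle1, Tle3 or Tle4. Tle2 gave 84.1, 101, 137 and 179 units. Both DKO values were above both WT values, by 1.63-fold without LPS and 1.77-fold with LPS. Tle6, known best from the egg, gave 289, 357, 513 and 315 units, 1.78-fold higher in untreated DKO cells. Its LPS effects, 0.31 in WT and -0.70 in DKO cells, differed by -1.01, just past 2-fold, and this call was lost with the offset of 16 units. With array medians set equal Tle6 also passed 2-fold in untreated DKO cells, at 1.04. Tle5, a short family member that lacks the corepressor's repeat domain, gave 3741, 3005, 4057 and 2864 units and passed 2-fold in no comparison.

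Among 14 measured genes of corepressor complexes, 1 was higher and 0 lower with LPS in WT cells, and 1 was higher and 1 lower in DKO cells. Over all genes 3.36% were higher and 3.41% lower with LPS in WT cells, and 4.66% and 4.77% in DKO cells. For DKO against WT the shares were 0.466% and 0.984% without LPS, and 0.845% and 0.934% with it. These shares also stand beside the counts of the lists that follow. Bcor, the corepressor that works with BCL6, was 2.60-fold higher in WT and 3.73-fold higher in DKO cells. One of its 2 other probe sets fell short of 2-fold in WT cells (0.71). Tbl1xr1, a subunit of the NCoR complex, was lower with LPS in DKO cells by 2.07-fold, and each of the 5 probe sets that cleared the floor throughout gave -1.03 to -1.31 there, against -0.30 to -1.11 in WT cells. After cyclic loess its value in DKO cells was -0.99, and the call was lost. For DKO against WT none of the 14 passed 2-fold by its brightest probe set, with list medians of -0.048 without LPS and -0.015 with LPS. A dimmer Tbl1xr1 probe set, at 270, 212, 201 and 93.3 units, gave -1.18 with LPS where the brightest gave -0.11.

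Of 15 measured partners and inhibitors of helix-loop-helix proteins, 14 had a value, and with LPS 1 was higher and 1 lower in each genotype. Mitf, a regulator of lysosomal and pigment genes, was 2.30-fold higher in both. Tcf12, an E protein that pairs with tissue-specific helix-loop-helix factors, was 2.31-fold lower in WT and 2.98-fold lower in DKO cells. With array medians set equal the WT value of Tcf12 was -0.99 and its call was lost, as it was with the median over probe sets and without shared designs. Myc, at 0.98 in WT cells, passed 2-fold under each of the 3 other scalings, which made 2 higher there. None passed 2-fold between genotypes. The largest DKO minus WT values of this list were those of Id1, which blocks DNA binding by E proteins, at -0.54 without LPS, and of Myc, at -0.61 with LPS.

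DNA-binding factors that recruit Groucho gave 1 higher and 1 lower of 6 with LPS in WT cells, and 2 higher and 1 lower of 6 in DKO cells. Prdm1, which encodes BLIMP1, was 3.75-fold higher in WT and 3.64-fold higher in DKO cells. Hhex, a homeobox repressor of blood and endothelial development, was 2.85-fold lower in WT and 4.57-fold lower in DKO cells. Gfi1, a repressor of myeloid genes, was above the floor only in DKO cells with LPS, at 208 units, and was the 1 gene of 6 past 2-fold against WT there. With the floor at the 65th percentile it did not pass.

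In the Notch input to these genes, 1 of 11 was higher with LPS in WT cells and 2 of 12 in DKO cells, with 0 lower. Rbpj was higher by 1.68 in WT and 2.23 in DKO cells on the log2 scale, and Dtx2, a Notch-binding ubiquitin ligase gene, differed by 0.86 and 1.04. Under each of the 3 other scalings Dtx2 passed 2-fold in WT cells too, at 1.03 to 1.08, so the count was 2 in both genotypes, while with the median over probe sets or without shared designs it did not pass in DKO cells. Notch1, a receptor gene, gave 1380, 1599, 1024 and 977 units. Both DKO values were below both WT values, and DKO minus WT was -0.43 without LPS and -0.71 with it, or -0.71 and -0.58 by its other probe set. None of 12 passed 2-fold between genotypes. Nrarp, itself a Notch target, was below the floor on all arrays.

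Of the clock genes that BHLHE40 and BHLHE41 act on, 0 of 13 were higher with LPS, 1 was lower in WT cells and 2 were lower in DKO cells. Dbp, a classical output gene of the clock, was lower by 3.32-fold in WT and 4.36-fold in DKO cells. Per1 gave -0.45 in WT and -1.21 in DKO cells. Against WT none of 13 passed 2-fold without LPS and none of 12 with LPS, with list medians of 0.024 and -0.059. The labels do not state the time of day of harvest.

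Of 7 inflammatory genes listed as reported targets of these repressors, 6 (Il6, Il12b, Cxcl1, Tnf, Il1b and Csf2) were higher with LPS in each genotype. With LPS 3 of them, Il12b, Cxcl1 and Il1b, were more than 2-fold higher in DKO than in WT cells. Il6 (0.95), Csf2 (0.65), Il10 (0.40) and Tnf (0.34) were also above WT there on the log2 scale, short of 2-fold. The 7 genes were listed with results of these arrays known, so the counts are a description. Il1b stood at 1.02 on the log2 scale and fell short after quantile normalization (0.98), which left 2. Cxcl1 read 6791 units in WT and 15192 in DKO cells with LPS. Il10, a cytokine gene that BHLHE40 is known to repress, gave 99.1, 62.6, 71.0 and 82.6 units and passed 2-fold in no comparison.

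Genes with a pattern over the 4 arrays most like that of a member were found by the Euclidean distance between centred log2 intensities, over 9982 genes above the floor on every array. Bhlhe40 and Tle1 had a range of at least 2-fold over the arrays and were the members compared. Nearest to Bhlhe40 were Lrmda (0.084), Haus2 (0.085), Plxna4 (0.088), Tspan5 (0.11) and Olfml3 (0.11). All 5 were lower in DKO cells with LPS, by 1.86-fold to 2.14-fold, which follows from choosing them for likeness to Bhlhe40. Nearest to the brighter Tle1 probe set were Kif13b (0.052), Kdr (0.055), Kdm2b (0.062), Mrtfa (0.066) and Orc5 (0.071). Kdr, an endothelial marker, gave 601, 350, 635 and 286 units, while the other 4 endothelial markers were below the floor on all arrays.

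The genes next to the deleted ones were also read. Of the 3 measured genes on either side of Hes1 on chromosome 16, only Opa1, which shapes mitochondria, was above the floor, and DKO minus WT was 0.20 without LPS and 0.10 with it. Beside Hey1 on chromosome 3, Zc2hc1a, Mrps28 and Tpd52 gave differences between -0.39 and 0.34 without LPS. The cytokine gene Il7 gave 83.3, 86.8, 118 and 134 units, higher in DKO cells by 0.50 and 0.63. Stmn2 was below the floor, and Zbtb10 cleared it only with LPS. None of these neighbours passed 2-fold between genotypes.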

How the data were processed

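Biotin-labelled amplified RNA of 4 samples was hybridised to arrays of 45101 probe sets, per the labels' protocols. The deposited intensity of each probe set is on a linear scale, and from the values each array had been scaled by the authors to a trimmed mean of 500 units, with 2% trimmed at either end. The software is not named in the labels or file headers. A single scaling factor per array does not align dim probe sets, and those under the floor on all arrays read higher on the untreated WT array, by a median of 0.24 on the log2 scale.

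The 64 control probe sets were left out. Symbols were updated through Entrez identifiers with the RefSeq table of assembly GRCm38.p6. Each gene was represented by the probe set brightest on average over the arrays. Differences are of log2 intensities floored at 52.9 units, counted at 2-fold, with no test since each group had 1 array. The members, lists and rules were chosen with earlier results of these data known. The genes named by rule were the members, list genes past 2-fold or among the 2 largest differences of a list, and the 5 genes nearest in pattern. The rule also took in the 3 neighbours on either side of the deleted genes, and it left out the cell markers. Tle5, Id1, Myc, Notch1, Nrarp and Il10 were named after their values were seen. The calculation was tested on simulated data. Python 3.11.15, numpy 2.4.6, pandas 2.3.3 and limma 3.58.1 were used.

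Other settings tried were 3 scalings (array medians made equal, quantile, cyclic loess), a floor at the 35th or the 65th percentile, no floor but an offset of 16 units, the median over probe sets, removal of probe sets whose suffix marks a shared design, and a 1.5-fold or 3-fold threshold.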

Additional observations from a re-analysis of the deposited data

Results flagged for a closer look

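The 3 members Bhlhe41, Tle1 and Tle3, above the floor on all arrays, had effects of opposite sign in 2 groups under the same contrast. Each was read by its brightest probe set. With 1 array per group the differences were not tested. For Bhlhe41 the LPS effect was -0.69 in WT and 0.089 in DKO cells, and DKO minus WT was -0.50 without LPS and 0.28 with LPS, on the log2 scale. For Tle3 DKO minus WT was -0.27 without LPS and 0.12 with it. For Tle1 it was 0.091 without LPS and -0.30 with it. By the other Tle1 probe set it was -0.16 and -0.14, with no change of sign. With array medians set equal, DKO minus WT without LPS was -0.29 for Bhlhe41, -0.058 for Tle3 and 0.30 for Tle1. The values 0.089, 0.091 and 0.12 were smaller than the median gap between 2 probe sets of a gene, 0.18 to 0.26 over the 4 comparisons. No group had enough arrays to look for an array that stands apart.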

How the results depend on the processing

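No paired analysis was possible because each group had 1 array. Over the comparisons, directions and alternatives, 86 counts of members past the threshold stayed within 1.5 times the reported count and 14 did not. Only the counts holding Tle1 and Bhlhe40 were above 0 to begin with, and a 0 that stayed 0 was taken as kept. The tally is therefore no measure of how stable those calls are. Tle1 was the 1 member lower with LPS in DKO cells, and the count was 0 with the median of its probe sets, which disagree, and 0 at 3-fold. Bhlhe40 was the 1 member lower in DKO cells with LPS, and the count was 0 after quantile normalization, 0 after cyclic loess, 0 with the offset of 16 units and 0 at 3-fold. The floor at the 35th percentile gave 1 member lower with LPS in WT cells, where 5.51% of genes were, and 1 lower in untreated DKO cells, where 3.49% were, both Hey1. The offset gave 1 lower with LPS in WT cells (Hey1), where 5.08% of genes were, 2 lower in untreated DKO cells (Hes1 and Hey1), where 3.89% were, and 1 above 2-fold for the difference of LPS effects (Hey1), where 7.07% were. These rest on values near or below the floor. At 1.5-fold 2 members were lower with LPS in WT cells (Bhlhe41 and Tle1), where 12.9% of genes were, 1 was higher with LPS in DKO cells (Tle3), where 8.94% were, and 1 was above for the difference of LPS effects (Bhlhe41), where 5.22% were. Neither Tle1 nor Bhlhe40 changed sign in these 2 comparisons under any alternative run. Leaving out shared designs removed Hes6. Signal over background limits Hes1, Hey1, Hey2 and Heyl, for which no reading here tells low expression from none.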

Other observations

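The order of the 4 arrays was the same for Bhlhe41 and Il10, a match chosen after the values were seen. From the highest array to the lowest (untreated WT, LPS-treated DKO, untreated DKO, LPS-treated WT), Bhlhe41 read 197, 148, 139 and 122 units and Il10 read 99.1, 82.6, 71.0 and 62.6 units. Both genes are dim and rest on 1 probe set above the floor. The untreated WT array, highest for both, also read higher for probe sets below the floor throughout, by a median of 0.24 on the log2 scale. The part of this in the shared order was not tested. How many other genes have this order was not counted.

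Rbpj was brighter with LPS in both genotypes by each of its 3 probe sets. The differences were 0.71 to 1.95 in WT and 2.12 to 2.70 in DKO cells on the log2 scale. Hes1, Hey1, Hey2 and Nrarp, which RBPJ controls in other settings, were below the floor with LPS in both genotypes. Heyl was below it too by its brightest probe set, but a second read 58.6 units in WT cells with LPS and 12.2 without.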
